A study of Mus musculus with 142 samples.

Results

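The left border of the Dppa2/4 domain is a stretch of mouse chromosome 16 (mm10) that leads from late-replicating DNA into the early-replicating domain that holds Dppa4, Dppa2 and Morc1. It was taken by position as the 14 windows of 50 kb that start from 47500001 to 48150001, out of 49264 windows on the 19 autosomes. No measured value entered this rule, though earlier results of these data were known when it was set. The lincRNA gene 6430553K19Rik lies at its right end, at 48122072 to 48158499 on the minus strand, and 27.9 kb of its 36.4 kb (76.7%) fall in the window that starts at 48100001, called the lincRNA window here. The other windows are named by the distance of their centre from the start site of the lincRNA, negative to the left, so that the lincRNA window stands at -33.5 kb and its right neighbour, which holds the start site, at 16.5 kb. The other 6 genes annotated in the border were Gm24651 (an snRNA), Gm25318 and Gm25339 (misc_RNA) and the processed pseudogenes Gm6914, Gm7275 and Gm17804, so that the border held no protein-coding gene. Transcription of the lincRNA was not measured in these files, and every value below is the replication timing (RT) of a window.

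Cells copy their genome in a set order during S phase, and domains that replicate early are separated from late ones by timing transition regions, in which RT changes gradually along the chromosome. Early replication control elements (ERCEs) are segments whose removal delays a domain, and in embryonic stem cells they carry clusters of sites for Oct4, Sox2 and Nanog (OSN), transcription factors of pluripotency. Dppa2 and Dppa4 are pluripotency markers that bind chromatin together, and Morc1 is known for its role in the male germ line. A lincRNA is a long RNA from between protein-coding genes, and no role is stated here for 6430553K19Rik.

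RT was measured by E/L Repli-seq in F121-9 cells, hybrid embryonic stem cells of mouse with one musculus and one castaneus (CAST) homolog (the musculus strain is the one in labels such as C2OSN-129), grown in 2i and LIF. Cells were labelled with BrdU for 2 h and sorted into early and late S phase, and each value is the log2 of early over late reads, so that a higher value is earlier replication. The table held both alleles of 66 libraries from 53 clones of 26 cell lines, all with CRISPR-mediated deletions. Each line was known from the deletions in its name, where A, B and C are the ERCE-containing segments, Z is a further segment at the annotated start of Dppa2, OSN with a number is an OSN cluster within a segment, TSS is a promoter within it, and CL and CR are deletions on the left and right side of C.

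Clones were classed by how many of the 7 OSN sites of A, B and C the deletions removed from the musculus allele. The class with 0 to 1 sites removed, which served as the reference, held 9 clones of the 6 lines BTSS, BTSS.CTSS, CTSS, CL20k, COSN1 and COSN1.2.8k. The class with 2 to 3 sites held 10 clones of COSN12, COSN123, CR13.4k, CR14.6k and AOSN.COSN12. The class with 4 to 5 sites held 15 clones of A.COSN12, A.COSN123, AOSN.COSN123, BOSN1.COSN123, BOSN12.COSN123, Z.AOSN.COSN123 and Z.B.C. The class with 6 to 7 sites held 8 clones of A.B.COSN123, A.BOSN1.COSN123, A.BOSN12.COSN123, A.BOSN12.BTSS.COSN123, AOSN.B.COSN123 and AOSN.BOSN12.COSN123. All 42 of these clones had an unmodified castaneus allele, which was the control within the cell. A further 10 clones carried a deletion on castaneus too or instead, among them the 3 of ATSS.BTSS.CTSS, and 1 clone of COSN1.2.8k had no castaneus value on chromosome 16. By the study's account only 1 clone of COSN123 was recovered and further deletions were made in that line, whose background 11 of the 15 clones with 4 to 5 sites and all 8 with 6 to 7 sites carry by name. Such clones share a parent, itself made from a COSN1 line, while the tests take clones as independent, so an effect of that parent cannot be told apart from that of the sites removed. Each clone is a single expanded line, each line is represented by 1 to 5 clones, and no cell had both alleles unmodified. An unmodified musculus allele was present in 2 clones, CR11.8k clone 50 and CTSS clone C4.

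No deletion was made inside the border. The first guide sites of Z, of A, of the OSN cluster of A and of its promoter are shown because they set how far the deleted segments lie from the lincRNA, with the protospacer in lower case and the PAM, the short motif that Cas9 needs, in capitals. They are given 5′ to 3′ on the strand of the guide and matched chromosome 16 of mm10 once each.
Z-OSN-G1: ttactatgtagcagagacaaAGG
A-G1: gggttaatgtgactgggcagTGG
A-OSN-1-G1: cactgtagctgtcaccaaagAGG
A-TSS-G1: tagacactctgtaacacagaAGG
The Z-OSN-G1 site at chr16:48303452-48303474 (minus strand) was intergenic and lay 145.0 kb from the start site of the lincRNA. The A-G1 site at chr16:48308242-48308264 (minus strand), the A-OSN-1-G1 site at chr16:48308671-48308693 (plus strand) and the A-TSS-G1 site at chr16:48309943-48309965 (plus strand) were all in introns of Dppa2, 149.7, 150.2 and 151.5 kb from that start site. The first B-OSN guide lay 263.8 kb and the first C-OSN guide 447.8 kb away. Dppa4, the nearest protein-coding gene on this side, began 125.2 kb from the lincRNA.

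The promoter of 6430553K19Rik, from 250 bases before to 50 bases after the RefSeq start (chr16:48158450-48158749, minus strand, GRCm38.p6), is shown because the OSN deletions raise the question of what sites the lincRNA itself carries, with matches to the searched motifs in capitals.
6430553K19Rik promoter: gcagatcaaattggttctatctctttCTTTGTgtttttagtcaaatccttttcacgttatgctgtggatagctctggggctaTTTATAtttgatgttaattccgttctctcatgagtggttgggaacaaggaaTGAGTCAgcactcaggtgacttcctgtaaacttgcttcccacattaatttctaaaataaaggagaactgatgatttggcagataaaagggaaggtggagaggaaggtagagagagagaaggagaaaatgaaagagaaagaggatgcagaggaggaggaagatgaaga
Motifs were searched on both strands. The octamer ATGCAAAT, bound by Oct4, had no match and was present in 1.74% of 32851 promoters of the same length. Of 2 Sox-type hexamers, ACAATG had no match (12.6% of promoters) and ACAAAG had 1 match on the minus strand of this sequence, at position -224 from the start (18.7% of promoters). TATAAA had 1 match on the minus strand, at position -168 (13.6% of promoters), and the AP-1 motif TGAGTCA had 1 match, at position -117 (5.2% of promoters). The E-box CACGTG had no match (7.15% of promoters). This sequence held 2 CpG dinucleotides, against a median of 7 over all promoters, and its GC content was 40.0% against a median of 52.7%. The gene has 6 exons with 2260 bases in all, of which exon 1 lies in the window at 16.5 kb and exons 2 to 6 in the lincRNA window. The GC content of the 14 windows of the border ranged from 35.8% to 40.8%, with a median of 38.2%, against 41.7% in the 8 windows of the core and 41.4% over all windows with sequence.

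On the unmodified castaneus allele the border rose from late to early RT over its whole length. The mean was -1.41 at -633.5 kb over the 31 clones with a value there, and over all 42 clones it was -1.06 at -383.5 kb, -0.17 at -183.5 kb, 0.50 in the lincRNA window and 0.68 at 16.5 kb. The core of the domain, the 8 windows that start from 48200001 to 48550001, then had a mean of 1.00 ± 0.13 (SD, n = 42). The slope over the windows with a value, 8 to 14 per clone, was 0.361 ± 0.049 log2 units per 100 kb (SD, n = 42), and RT crossed 0 at -145.0 ± 37.9 kb (SD, n = 42), left of the lincRNA. In the lincRNA window the lowest unmodified castaneus value was 0.016, the median 0.496 and the highest 0.850, so that the normalized log2 ratio was above 0 in all 42 clones.

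The unmodified musculus allele rose along the same stretch but later. Its lincRNA window measured 0.252 in CR11.8k clone 50 and 0.184 in CTSS clone C4, both inside the range of the unmodified castaneus alleles and below their median. At 16.5 kb its mean was 0.54, against 0.68 on castaneus, while in the core both had a mean of 1.00. With 2 clones no test was made, and the other allele of both clones was deleted.

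**Figure D1:**
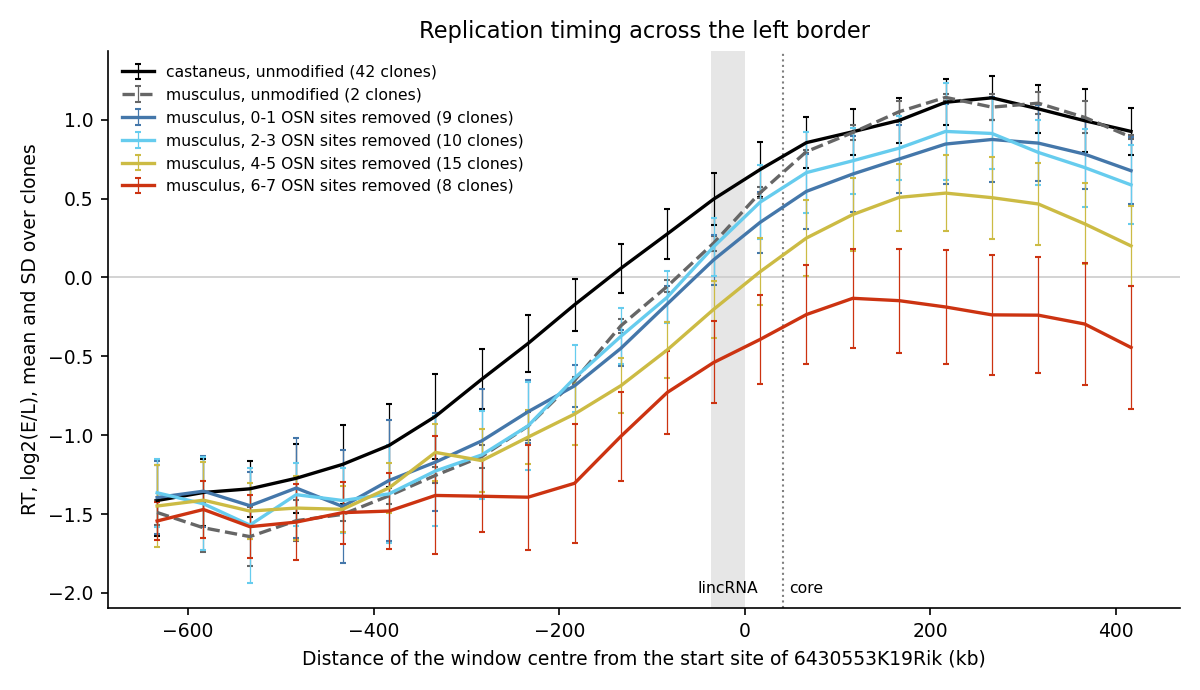
Mean RT, as log2 of early over late reads with the SD over clones as error bars, against the distance of each window's centre from the start site of 6430553K19Rik in kb, with Dppa4, Dppa2 and Morc1 to the right. The grey band is the lincRNA and the dotted line the border with the core; the curves lie together at the far left, where means were between -1.54 and -1.36, and fan out towards the core, with castaneus highest and the musculus allele with 6 to 7 sites removed lowest.

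The difference between the alleles was not one constant offset along the border. In the reference class the musculus allele was lower than castaneus by 0.34 in the lincRNA window on the log2 scale, with single clones at -0.529 at the lowest, -0.319 at the median and -0.065 at the highest (mean -0.338 ± 0.142, SD, n = 9). All 9 clones were below 0, and an exact two-sided sign-flip test over clones gave p = 0.00391, the smallest that 9 clones allow. In the fit across all windows with limma, 7 of the 8 windows of the border that could be tested were lower on musculus, where 23.7% of all windows tested genome-wide were called lower. The difference was -0.07 at -483.5 kb (adjusted p = 0.46), -0.44 at -283.5 kb (adjusted p = 4.4e-05), -0.55 at -183.5 kb (adjusted p = 7.3e-08), -0.45 at -83.5 kb and -0.29 at 16.5 kb (adjusted p = 0.00039). It was therefore largest in the middle of the rise and smaller on both sides of it. In the core it lay between -0.26 and -0.17, with 6 of 8 windows called lower, and in a right flank of the same length, the windows that start from 48700001 to 49350001, 6 of 14 windows were called lower and 3 higher. The reference class stands in for cells with both alleles unmodified, so the offset includes whatever its small deletions do. Without its promoter lines (BTSS, BTSS.CTSS and CTSS) the offset of the lincRNA window was -0.241 (limma adjusted p = 0.01).

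Expressed as a distance, the musculus transition lay nearer to the domain than the castaneus transition of the same clone. In the reference class the midpoint, where RT reached the mean of the lowest value of the border and the highest of the core, lay 80.8 ± 43.7 kb further right on musculus (SD, n = 9), and the crossing of 0 lay 97.3 ± 49 kb further right (SD, n = 9). Every one of the 9 clones had both positions further right on musculus. Within these clones the slope was 0.078 ± 0.050 log2 units per 100 kb shallower on musculus (SD, n = 9), again in 9 of 9 clones. These are descriptions over the windows of the border, with no test.

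The lincRNA window of the musculus allele had a log2 ratio below 0 in all clones once 6 to 7 OSN sites had been removed. In the 9 reference clones the musculus value was -0.093 at the lowest, 0.142 at the median and 0.339 at the highest. With 2 to 3 sites removed it was -0.132, 0.259 and 0.429 (n = 10). With 4 to 5 sites removed it was -0.441, -0.184 and 0.105 (n = 15), and 13 of 15 clones were below 0. With 6 to 7 sites removed it was -1.040, -0.495 and -0.244 (n = 8), and all 8 clones were below 0. The last class did not overlap the reference class, whereas the class with 2 to 3 sites spanned the same range as it. The castaneus allele of the same clones had means of 0.45, 0.60, 0.48 and 0.46 in the 4 classes.

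**Figure D2:**
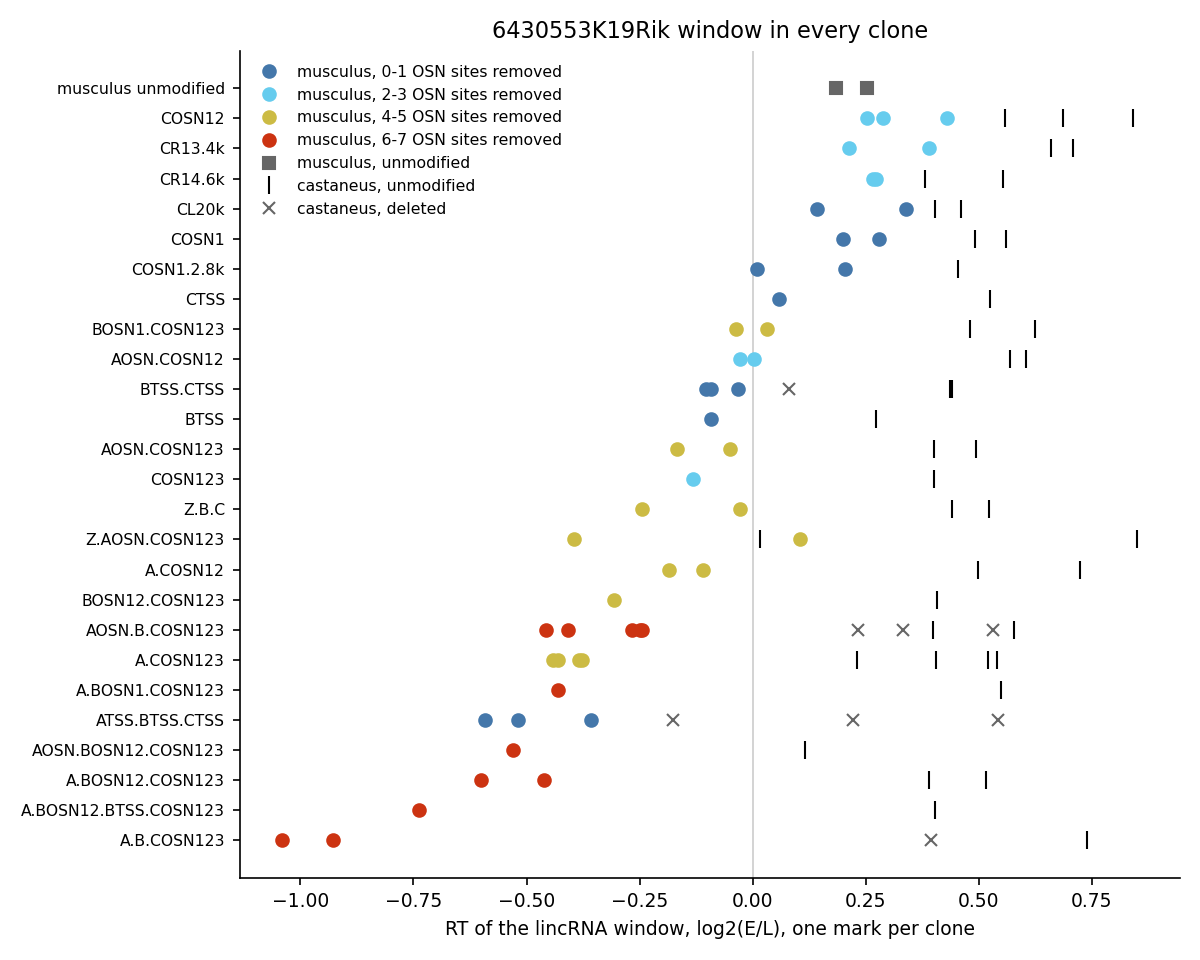
RT of the lincRNA window, as log2 of early over late reads, in every clone of each cell line (lines, ordered by the mean of the musculus allele), with 1 mark per clone and allele. The musculus alleles run from 0.429 in COSN12 to -1.040 in A.B.COSN123, while unmodified castaneus alleles (bars) stay between 0.016 and 0.850 in all lines.

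The musculus minus castaneus difference, which removes what both alleles of a library share, was tested in all windows with limma. With 2 to 3 sites removed, 0 of the 10 windows of the border that could be tested were called lower than in the reference class (0.00539% of all windows were), and 0 passed at an unadjusted p of 0.05. The share of all windows that passed at an unadjusted p of 0.05 was not counted, here or for the counts below. The lincRNA window differed by -0.06 with an SE of 0.09 (adjusted p = 0.88). With 4 to 5 sites removed 0 of 10 windows were called (0.315% of all windows), while 4 passed at an unadjusted p of 0.05, all from the window at -133.5 kb rightwards. The lincRNA window differed by -0.34 with an SE of 0.08 and did not pass (adjusted p = 0.050). It passed without the reference clone 2-28 of COSN1 (adjusted p = 0.047) or C12 of CTSS (adjusted p = 0.046). Without A.B.COSN123 clone 2E.1, which is in neither of the classes compared, it passed as well (adjusted p = 0.012). The difference then stayed at -0.341, while its SE fell from 0.084 to 0.068. The lincRNA window also passed when only windows with a value in every clone were tested (adjusted p = 0.028). It did not pass when 1 of the other 7 reference clones was left out (adjusted p of 0.06 to 0.11). With libraries as units it did not pass either (adjusted p = 0.12). On the musculus value alone the difference was -0.162 and did not pass (adjusted p = 0.4). That last fit took all 51 clones deleted on musculus, so that its reference class also held ATSS.BTSS.CTSS, among others. Over the clones of the class fit the musculus means of this window were 0.112 in the reference class and -0.202 with 4 to 5 sites removed.

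With 6 to 7 sites removed 5 of 10 windows were called lower, against 0.0835% of all windows, and these were the 5 next to the core. The differences were -0.58 at -183.5 kb (adjusted p = 0.0072), -0.54 at -133.5 kb (adjusted p = 0.0083), -0.51 at -83.5 kb (adjusted p = 0.015), -0.66 with an SE of 0.10 in the lincRNA window (adjusted p = 3.8e-05) and -0.77 at 16.5 kb (adjusted p = 2.4e-05). In the core all 8 windows were called, by -1.11 to -0.82. The next windows to the left differed by -0.44 at -233.5 kb (adjusted p = 0.13) and -0.27 at -283.5 kb (adjusted p = 0.47), and the 3 leftmost windows tested, at -483.5 to -383.5 kb, by -0.11 to -0.03. These 5 windows were not called, which sets no outer limit to the change. At an unadjusted p of 0.05, 7 of 10 windows of the border passed, and neighbouring windows are not independent after the smoothing. In the right flank 2, 4 and 5 of 14 windows were called lower in the 3 classes. Without clone 2E.1 the lincRNA window differed by -0.55 in the class with 6 to 7 sites (adjusted p = 6e-05) and 5 windows of the border were still called.

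The unmodified castaneus allele did not pass the test in the border in any class. Fitted alone, castaneus had 0 of 11 windows called in the classes with 2 to 3, 4 to 5 and 6 to 7 sites removed from musculus, against 7.24%, 7.31% and 0.462% of all windows called in either direction, and 0 of 11 passed at an unadjusted p of 0.05 in any of them. The differences in the lincRNA window on castaneus were 0.15, 0.03 and 0.01 with SEs of 0.08, 0.07 and 0.08.

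**Figure D3:**
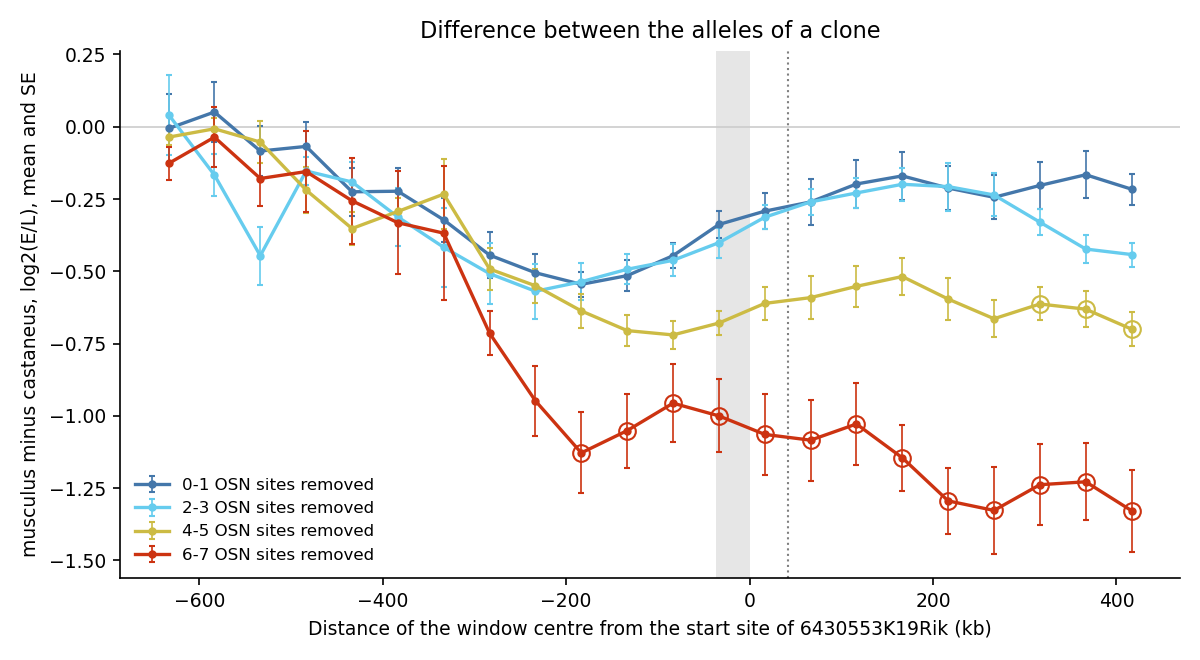
Mean difference of musculus minus castaneus within a clone, in log2 of early over late reads with the SE over clones, by window and class of deletion, against the distance in kb from the start site of 6430553K19Rik. Open circles mark windows called against the reference class with 0 to 1 sites removed; in the border only the class with 6 to 7 sites has them, in the 5 windows next to the core.

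On musculus the mean slope was lowest in the class with 6 to 7 sites removed, while midpoints stayed within the spread between clones, both given with no test. Over the windows of the border with a value, 6 to 14 per allele, the musculus slope was 0.267 ± 0.068 log2 units per 100 kb with 0 to 1 sites removed (SD, n = 9), 0.305 ± 0.066 with 2 to 3 (n = 10), 0.232 ± 0.043 with 4 to 5 (n = 15) and 0.167 ± 0.057 with 6 to 7 (n = 8). The missing windows were mostly at the left, and over alleles with at least 12 windows, a limit set after seeing the data, the slopes were 0.304 (n = 6), 0.311 (n = 8), 0.237 (n = 11) and 0.167 (n = 8) in the same order. On the 2 unmodified musculus alleles the slope was 0.326 and 0.332. The midpoint stood at -98.7 ± 46.8, -123.6 ± 39.9, -95.6 ± 53.2 and -123.8 ± 32.4 kb in the 4 classes (SD, n as above), and at -132.4 and -128.4 kb on the unmodified musculus alleles. The crossing of 0 moved instead, from -48.4 ± 27.0 kb (n = 9) over -62.9 ± 31.0 kb (n = 10) and 15.1 ± 48 kb (n = 15) to 109.7 ± 83.1 kb in 4 of the 8 clones with 6 to 7 sites removed. The other 4 clones had no crossing, since their musculus allele stayed below 0 through the core. The crossing thus lay left of the lincRNA in all 42 unmodified castaneus alleles and both unmodified musculus alleles and to its right in every clone with 6 to 7 sites removed that had one.

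**Figure D4:**
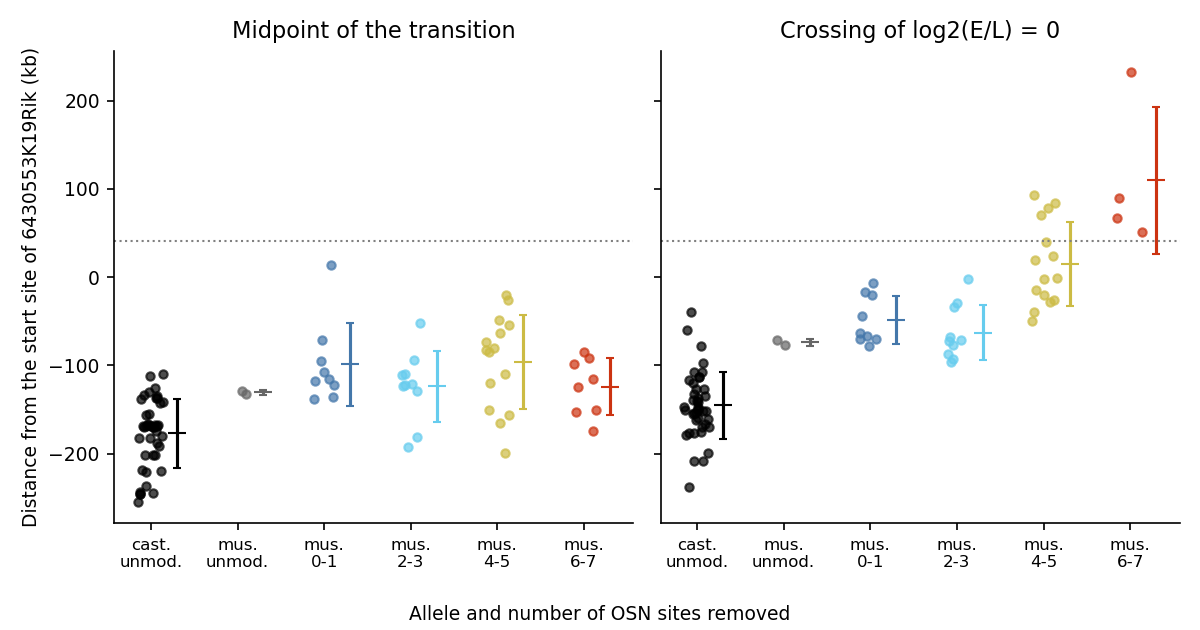
Position, in kb from the start site of 6430553K19Rik, of the midpoint of the transition (left) and of the crossing of a log2 ratio of 0 (right) in each clone by allele and number of OSN sites removed, with mean and SD beside the points. The dotted line is the border with the core, and 4 of the 8 clones with 6 to 7 sites removed are missing on the right because they never reach 0; midpoints of musculus stay at mean positions of -123.8 to -95.6 kb while crossings move right.

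The test of the local gradient, the value 2 windows to the right minus that 2 windows to the left, called 0 of 8 windows of the border in each class, with 0%, 0.00608% and 0.0213% of all windows called in either direction in the classes with 2 to 3, 4 to 5 and 6 to 7 sites. At an unadjusted p of 0.05, 0, 3 and 5 of the 8 windows passed, the last 5 all shallower. Around the lincRNA window the gradient changed by -0.29 log2 units per 200 kb with 6 to 7 sites removed (SE 0.11, adjusted p = 0.56).

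The means of the right part of the border are given with no test. In its right 7 windows the mean RT was 0.04 on unmodified castaneus (n = 42) and -0.38, -0.36, -0.60 and -0.96 on musculus in the 4 classes, with SDs of 0.12 to 0.24. The core had 0.75, 0.77, 0.40 and -0.24 and the right flank -0.42, -0.51, -0.62 and -0.81 in the same order. In the class with 6 to 7 sites the means of the right 7 windows and of the core thus lay -0.59 and -0.99 from those of the reference class on the musculus allele.

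Single lines were compared in the lincRNA window with the 9 reference clones by exact two-sided permutation tests of the musculus minus castaneus difference, adjusted over 12 lines. A.COSN123, which lost the whole A segment and 3 OSN clusters of C, was the only line to pass. Its 4 clones measured -0.951, -0.614, -0.784 and -0.982, all below every reference clone, and the mean was 0.495 below the reference (p = 0.0014, adjusted p = 0.0168). With 2 clones a line could not reach a p below 0.0182, and A.BOSN12.COSN123 (a difference of -0.645), A.COSN12 (-0.419) and AOSN.B.COSN123 (-0.406) stood at this limit with an adjusted p of 0.0545 in the exact test. Their clones were all below every reference clone.

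Of the lines with 2 or more sites removed from C alone, the 3 that had at least 2 clones differed from the reference class by less than its SD of 0.142. COSN12 differed by -0.034 (3 clones, adjusted p = 0.764, exact), CR13.4k by -0.045 (2 clones) and CR14.6k by 0.140 (2 clones), although both CR lines lost the same 3 OSN sites as COSN123. The 1 clone of COSN123, which could not be tested, measured -0.532 for musculus minus castaneus, just below the lowest reference clone at -0.529. Apart from A.COSN123, the lines tested that lost sites of A or B as well as of C had lower values that did not pass. AOSN.COSN12 differed by -0.262 and Z.B.C by -0.280 (adjusted p = 0.0727, exact), Z.AOSN.COSN123 by -0.241, AOSN.COSN123 by -0.218 and BOSN1.COSN123 by -0.218. The 2 clones of Z.AOSN.COSN123 differed from each other on both alleles, with 0.105 on musculus and 0.850 on castaneus in clone A9 and -0.396 and 0.016 in clone B4, so that the difference within a clone was -0.745 and -0.412.

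Loss of the whole A segment and loss of its OSN cluster alone could be compared where the other deletions were the same. This comparison was chosen after the values were seen. By the study's account A also holds the active Dppa2 promoter, which overlaps a further OSN site. The comparison therefore includes the loss of that promoter and site. The lincRNA window was lower with A in each of the 4 pairs of lines, by 0.157 with COSN12 (2 against 2 clones), 0.277 with COSN123 (4 against 2), 0.337 with BOSN12.COSN123 (2 against 1) and 1.037 with B.COSN123 (1 against 2). The mean over the pairs was -0.452, and an exact permutation within pairs gave p = 0.00123, the smallest it allows. Without A.B.COSN123 clone 2E.1, the single clone of the last pair, the mean was -0.257 (exact permutation p = 0.0037). In the core the same pairs differed by -0.039, -0.459, -0.402 and -0.886. AOSN against an intact A, in 3 pairs of lines, differed by -0.061 in the lincRNA window (exact permutation p = 0.217), with -0.228, -0.024 and 0.067 in the single pairs.

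The same contrast on the musculus value, which includes clones whose castaneus allele was deleted, set A.B.COSN123 at -1.040 and -0.928 against AOSN.B.COSN123 between -0.457 and -0.244. The 2 groups did not overlap, and the means of -0.984 ± 0.079 (SD, n = 2) and -0.325 ± 0.10 (SD, n = 5) differed by -0.659 (exact permutation p = 0.0476, the smallest possible). A deletion of B on castaneus could be read in the same lines. The castaneus lincRNA window was 0.373 ± 0.124 (SD, n = 4) with B deleted from castaneus and 0.573 (n = 3) with castaneus unmodified, a difference of -0.199 that did not pass the exact permutation test (p = 0.143, where 0.0286 was the smallest possible).

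The line ATSS.BTSS.CTSS, which lost the promoters of all 3 segments and 1 OSN site with that of A, was later in the lincRNA window than other musculus alleles with as few sites removed, a comparison also chosen after the values were seen. Its 3 clones measured -0.592, -0.357 and -0.518 on musculus in the lincRNA window, below all 11 other musculus alleles with 0 to 1 sites removed, whose mean was 0.083. The difference was -0.572 (exact permutation p = 0.00275, the smallest possible). The line was not in the class fit because its castaneus allele lacked the A promoter as well. On castaneus the same clones measured -0.176, 0.543 and 0.221, against 0.497 ± 0.165 on unmodified castaneus (SD, n = 42), a difference of -0.300 (exact permutation p = 0.0123). This rested on clone A1, without which it was -0.115 (exact permutation p = 0.32). BTSS.CTSS, with the B and C promoters removed, measured -0.076 ± 0.038 on musculus (SD, n = 3), and BTSS -0.091 in 1 clone.

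Over the 42 clones the musculus minus castaneus difference of the lincRNA window followed that of the core. Pearson's r was 0.882 and Spearman's rho 0.851, each with a permutation p of 1e-05, the smallest of 100000 resamples, and an adjusted p of 2.7e-05 over 8 relations. Without the 2 clones farthest from the median of the core r was 0.815. Within the classes r was 0.734 (9 clones, permutation p = 0.023), 0.631 (10 clones, permutation p = 0.053), 0.455 (15 clones, permutation p = 0.087) and 0.871 (8 clones, permutation p = 0.0086), with adjusted p of 0.03, 0.061, 0.087 and 0.014 and rho of 0.850, 0.648, 0.457 and 0.762. Over 24 cell line means r was 0.924. For the window at -283.5 kb r with the core was 0.454 (40 clones, rho 0.406, permutation p = 0.0037). The values were smoothed by the authors over 300 kb, so that the lincRNA window and the core share part of their reads as well as their libraries.

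**Figure D5:**
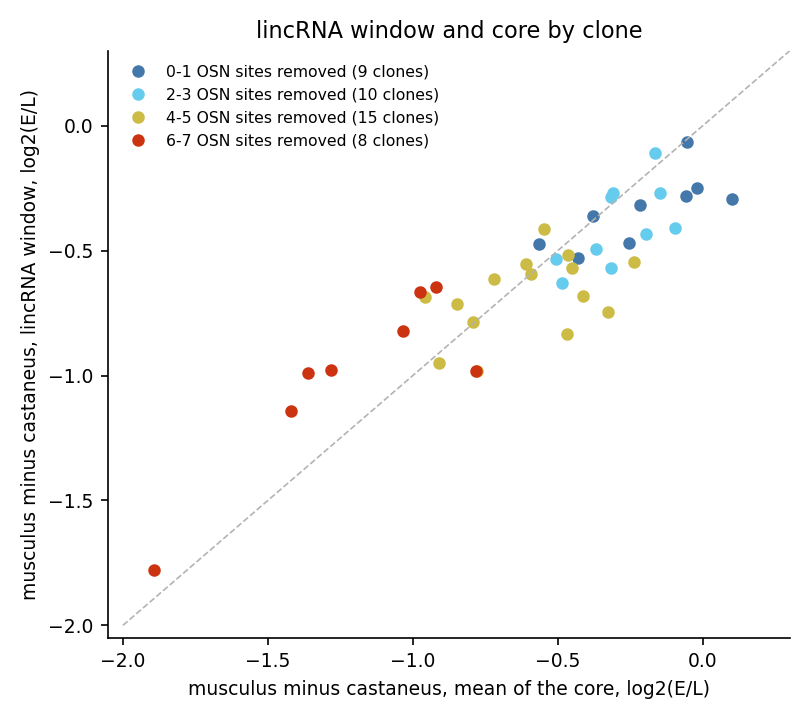
The musculus minus castaneus difference of the lincRNA window against that of the mean of the core, both in log2 of early over late reads, with 1 point per clone and the line of equality dashed. Clones with 6 to 7 sites removed lie at the lower left, ending with A.B.COSN123 clone 2E.1 at -1.780 in the lincRNA window.

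Genes were ranked by how closely the musculus minus castaneus difference in the window of their start site followed the lincRNA window over the clones of the class fit. Nearby, r was 0.885 for Dppa4, 0.876 for Dppa2, 0.827 for Morc1 and Gm5485, which share a window, 0.672 for Trat1 and 0.628 for Retnla and Retnlb. On other chromosomes the 3 highest of 21520 genes were Gm47316 on chromosome 13 (r = 0.610, 41 clones), Gm6370 on chromosome 5 (r = 0.570) and Bend4 on chromosome 5 (r = 0.529). Elsewhere on chromosome 16 they were Gm41495 (r = 0.421), Olfr167 and Iqcg (both r = 0.370) of 682 genes. These are the highest of many and are given as a description. The differences between the alleles ranged over clones from -0.242 to 0.295 for Gm47316, from -0.592 to 0.170 for Bend4, from -0.361 to 0.704 for Olfr167 and from -1.804 to 0.203 for Dppa4.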

How the data were processed

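E/L Repli-seq of F121-9 clones was analysed. Reads were trimmed by the authors (Trim Galore, cutadapt) and aligned to N-masked mm10 (bowtie2). SNPsplit separated the alleles, musculus being strain 129 and castaneus CAST, Samtools took out duplicates and bedtools gave counts per 50 kb window (versions not given in the sources used here). The deposited values are log2 ratios of early to late reads after scaling, quantile normalization and loess smoothing over 300 kb by the authors, so that neighbouring windows are not independent. Only ratios were given, so the depth is unknown and no counting interval could be set. Between 73.8% and 93.8% of windows had a value per column. The table had 138 value columns. The labels list 142 samples, and 10 of them (5 libraries: A.CTSS clones A10 and A8, AOSN.COSN123 clone F4, AOSN.BOSN12.COSN123 clone B8 and BOSN12.COSN123 clone B1) were not analysed here.

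Repeat libraries of a clone were averaged, and clones were the units. Whether clones came from separate transfections is not stated, and many share the COSN123 parent clone, so p-values measure the spread between these clones. The musculus minus castaneus difference was fitted in all windows with a value in at least 80% of clones (limma 3.58.1, R 4.3.3) with Benjamini-Hochberg adjustment over windows and calls at 0.05. The limma fits were tested on simulated windows drawn independently of each other, unlike the smoothed values. Single values were tested by exact permutation (Python 3.11.15). Annotation was GENCODE vM21 and RefSeq GRCm38.p6, both of the mm10 build, and GC content was read for 44356 windows. Named genes were 6430553K19Rik, all genes of the border, the genes of the domain and the 3 genes most like the lincRNA window on other chromosomes and on chromosome 16 outside 46.5 to 50.5 Mb, with 1 gene per 1 Mb; other genes within these limits were named after their values were seen. The border, the lists and the tests were chosen with earlier results of these data known. Alternatives tried were other controls, complete windows, other intervals and windows, and libraries with the replicate number as a block. Single clones were also left out (in the class fits those of the reference class and clone 2E.1). The other controls were musculus values alone, in the class fits over all 51 clones deleted on musculus, or all unmodified alleles. The comparisons of A with AOSN, of the promoter line and without clone 2E.1, the fit on castaneus alone a reference class without promoter lines and slopes of alleles with most windows were added after seeing the data.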

Additional observations from a re-analysis of the deposited data

Results flagged for a closer look

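Of 14 groups of 4 to 10 clones examined for a clone far from the rest, 1 held such a clone, and chance gives about 1 in 20 groups. In the class with 6 to 7 OSN sites removed, A.B.COSN123 clone 2E.1 had a musculus minus castaneus difference of -1.780 in the lincRNA window, whereas the other clones of the class lay between -1.142 and -0.647 (n = 8). The gap was 0.563 of the range of the class, above the limit of 0.526.

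The 3 other results came up because a difference between groups of clones passed its own exact test. In the lincRNA window, A.B.COSN123 differed from AOSN.B.COSN123 on the musculus allele by -0.659. Loss of A against loss of its OSN cluster, over 4 pairs of lines, differed by -0.452, and by -0.257 without clone 2E.1. The musculus allele of ATSS.BTSS.CTSS differed from other musculus alleles with 0 to 1 sites removed by -0.572.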

How the results depend on the processing

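Of 246 values recomputed under an alternative, 204 were counted as the same. These kept their direction and their side of the threshold, moved within the spread between clones, or were counts that changed little. An example of the last is the offset, with 7 windows of the border called lower against 10 with all classes weighted equally. The log2 ratios carry no depth, and the smoothing, quantile scaling and single clones per line limit the precision. The cause of the changes below was not tested unless stated. With 4 to 5 sites removed, 1 window of the border was called in place of 0 when only the 4 windows with a value in every clone were tested, and leaving out 1 clone gave 0 to 1. The count of lines past the test in the lincRNA window was 9 of 12 against all unmodified alleles, which are mostly castaneus and so include the difference between alleles, and CR14.6k then turned to -0.215. Leaving out 1 clone gave 0 to 1 such lines, with 0 without any 1 clone of A.COSN123 (B7, C9, D8 or H10), where fewer clones raise the smallest p. Leaving out 1 clone moved A.B.COSN123 against AOSN.B.COSN123 between -0.715 and -0.603 (-0.644, -0.692, -0.680, -0.638 and -0.640 without 1 clone of the latter; exact permutation p of 0.067 to 0.17, the smallest that these sizes allow), the offset of the lincRNA window between -0.372 and -0.314, castaneus after a B deletion between -0.286 and -0.115, and castaneus of ATSS.BTSS.CTSS between -0.474 and -0.115. That last difference was -0.141 at 16.5 kb. AOSN against an intact A turned to 0.012 at 16.5 kb, as did COSN12 (0.009) and CR13.4k (0.087), each without passing. With musculus values alone the lincRNA window turned to 0.235 in level and 0.127 in gradient with 2 to 3 sites removed. With 4 to 5 it turned to 0.025 in gradient, and none of these passed. These fits also took all 51 clones deleted on musculus, which added ATSS.BTSS.CTSS, among others, to the reference class. Over the clones of the class fit the musculus means of this window were 0.195 with 2 to 3 sites removed and 0.112 in the reference class. Slopes over the left 10 windows alone were lower, at 0.286 on unmodified castaneus and 0.149, 0.156, 0.139 and 0.050 on musculus in the 4 classes.

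The labels number the libraries of AOSN.B.COSN123 and A.B.COSN123 alike. With libraries as units and the replicate number as a replicate block the difference was -0.659 (exact permutation p = 0.0023), and without the block it was also -0.659 (p = 0.001, permutation), so the block changed no call. The 14 libraries were 2 repeats of each of 7 clones, so both p-values count repeats of a clone as replicates and are too small. The numbers pair no shared animal or day in the labels.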
